A study of Homo sapiens with 18 samples.

Results

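The 10 genes described here make, salvage or spend nicotinamide adenine dinucleotide (NAD): NAMPT, NAPRT, NMRK1, QPRT, NMNAT1, NMNAT2, NMNAT3, NADK, NNMT and SIRT1. They were taken by gene symbol from a table of 41120 symbols, and all 10 were listed. NAMPT and NMNAT2 were selected on their opposite differences between post-hypoxic and non-hypoxic SCC154 cells, so that comparison is given below as levels without a test. Of all symbols, 12291 had enough counts to be tested, among them 9 of the 10 genes. NNMT did not have enough.

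The libraries came from FADU-hfm, made from the HPV-negative line FADU, and SCC154-hfm, made from the HPV-positive line SCC154, both head and neck squamous cell carcinoma lines. Both carried a hypoxia fate-mapping reporter, which switches a cell from red (DsRed) to green (GFP) fluorescence for good once it has met low oxygen. Spheroids grown in plates that prevent attachment were dissociated with trypsin and sorted into red, non-hypoxic cells and green, post-hypoxic cells. The sorted cells were then cultured and passaged, so the libraries compare cells after that culture and not during low oxygen. No oxygen level, time in culture or clone number was given in the labels. There were 4 non-hypoxic FADU, 5 post-hypoxic FADU, 5 non-hypoxic SCC154 and 4 post-hypoxic SCC154 libraries. HPV status and line cannot be told apart with 1 line of each kind, and nothing in the labels says that replicates were separate sorts, so p-values reflect only how these samples vary, which may be technical variation.

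NAD carries electrons between metabolic enzymes and is also consumed by sirtuins and poly(ADP-ribose) polymerases, which split off nicotinamide. Cells rebuild it from nicotinamide through NAMPT, the rate-limiting salvage enzyme, from nicotinic acid through NAPRT, from nicotinamide riboside through NMRK1, and from tryptophan through the kynurenine branch, which enters NAD synthesis at QPRT. The NMNAT enzymes then join the mononucleotide to the AMP part of ATP: NMNAT1 in the nucleus, NMNAT2 in the Golgi and cytosol, NMNAT3 in mitochondria. Tumours are known to differ in which entry route they use.

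Library totals ran from 1654719 to 2503573 counts, and 1 CPM (a count scaled to library size, here with trimmed-mean factors) stood for 1.68 to 2.44 counts. All 9 squamous epithelial markers were tested and summed to 846 to 1163 CPM per library. None of the 6 fibroblast, 6 immune or 5 endothelial markers was tested, their sums reached at most 5.80, 4.99 and 5.18 CPM, and COL3A1, LUM, CD3E, KDR and CLDN5 were at 0 in every library. SCC154 post-hypoxic replicate 3 and SCC154 non-hypoxic replicate 1 had the lowest median correlation within their own groups, 0.964 and 0.971, and results were recomputed without them. SCC154 post-hypoxic replicate 4, at 0.970, was kept in that recomputation.

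The start regions of 4 genes are shown: NAMPT and NMNAT2, selected on their SCC154 levels, and NMNAT3 and QPRT, which were counted in FADU and at or near 0 in SCC154. Each is the 250 bases before a RefSeq start site (GRCh38.p14), written 5′ to 3′ on the strand of the gene. Capitals mark the core letters bound by hypoxia-inducible factors, ACGTG or GCGTG on either strand, with overlapping matches joined. The windows are chr7:106284984-106285233 on the minus strand for NAMPT, chr1:183418381-183418630 on the minus strand for NMNAT2, chr3:139677973-139678222 on the minus strand for NMNAT3 and chr16:29678758-29679007 on the plus strand for QPRT.
NAMPT: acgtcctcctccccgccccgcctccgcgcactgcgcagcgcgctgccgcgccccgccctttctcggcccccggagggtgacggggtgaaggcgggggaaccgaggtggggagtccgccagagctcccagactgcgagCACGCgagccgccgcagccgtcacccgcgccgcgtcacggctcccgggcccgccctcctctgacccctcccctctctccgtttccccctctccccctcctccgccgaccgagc
NMNAT2: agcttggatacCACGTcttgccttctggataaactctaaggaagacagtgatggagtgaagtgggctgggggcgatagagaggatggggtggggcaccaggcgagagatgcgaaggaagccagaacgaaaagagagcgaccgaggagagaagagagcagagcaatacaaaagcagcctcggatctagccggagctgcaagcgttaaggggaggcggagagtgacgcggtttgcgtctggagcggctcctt
NMNAT3: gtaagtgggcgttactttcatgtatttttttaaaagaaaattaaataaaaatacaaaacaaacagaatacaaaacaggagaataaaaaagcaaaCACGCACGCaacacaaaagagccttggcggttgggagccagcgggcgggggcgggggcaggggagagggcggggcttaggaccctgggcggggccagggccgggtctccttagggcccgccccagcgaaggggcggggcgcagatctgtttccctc
QPRT: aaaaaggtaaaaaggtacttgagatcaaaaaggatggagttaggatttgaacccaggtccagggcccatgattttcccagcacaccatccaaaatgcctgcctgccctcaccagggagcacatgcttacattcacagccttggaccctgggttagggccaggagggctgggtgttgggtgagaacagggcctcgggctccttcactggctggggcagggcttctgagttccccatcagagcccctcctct
The NAMPT window held 1 core 113 bases before the start and 34 CpG dinucleotides, and the NMNAT2 window 1 core 239 bases before the start and 15 CpG. The NMNAT3 window held 1 joined pair of cores and 14 CpG, and the QPRT window no core and 1 CpG. RefSeq tables had windows for 7 of the 10 genes. Of all 35116 windows of this length, 43.2% held a core, and the median was 11 CpG, so a core in a window is common. These are letters in a sequence and not measured binding. Other windows listed for these genes, and those of the other genes, are not shown.

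NAMPT (chr7:106248285-106286326, minus strand; positions of genes are from GENCODE v29 on GRCh38) was higher in SCC154 than in FADU, and lower in the post-hypoxic than in the non-hypoxic SCC154 libraries. In FADU its level was 272, 184, 182 and 188 CPM in the non-hypoxic libraries and 257, 208, 214, 187 and 246 CPM in the post-hypoxic ones. The FADU groups overlapped, and non-hypoxic replicate 1 stood above the other 3. In SCC154 it was 628, 569, 640.0, 599.9 and 574 CPM in the non-hypoxic libraries and 366, 446, 426 and 427 CPM in the post-hypoxic ones. Every post-hypoxic SCC154 library lay below every non-hypoxic one, and the means were 602 ± 31.6 CPM (SD, n = 5) and 416 ± 34.6 CPM (SD, n = 4), a ratio of 0.691 or a log2 difference of -0.53. Over the alternative settings this difference ran from -0.57 to -0.47, and it was -0.55 without the pair of SCC154 libraries that stood apart.

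Between the lines, NAMPT was 2.91-fold higher in non-hypoxic SCC154 than in non-hypoxic FADU (log2 1.54, SE 0.12). In post-hypoxic cells it was 1.87-fold higher (log2 0.90, SE 0.11). These differences are given without a test, since both SCC154 groups took part in the choice of NAMPT. All SCC154 libraries exceeded all FADU libraries in both states. In FADU the post-hypoxic level differed from the non-hypoxic one by log2 0.10 (95% interval -0.14 to 0.35), within the spread between replicates (edgeR adjusted p = 1). NAMPTP1, a processed pseudogene of NAMPT on chromosome 10, received 2.12 to 11.0% of the number of tags counted for NAMPT, and how reads matching both were assigned is not given. Its mean was 20.8 CPM in non-hypoxic and 11.8 CPM in post-hypoxic SCC154, a log2 difference of -0.82 in the same direction as NAMPT. Between the lines, SCC154 minus FADU, NAMPTP1 differed by log2 0.92 in non-hypoxic cells, also in the direction of NAMPT. In post-hypoxic cells it differed by log2 -0.33, in the opposite direction.

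NMNAT2 (chr1:183248237-183418602, minus strand), the labile NMNAT known from axon survival, was highest in post-hypoxic SCC154. Its levels were 4.28, 11.8, 6.99 and 4.85 CPM in non-hypoxic FADU and 5.45, 7.36, 4.99, 5.78 and 3.96 CPM in post-hypoxic FADU. The FADU groups overlapped. In SCC154 the levels were 5.92, 21.3, 12.1, 17.3 and 19.5 CPM in the non-hypoxic libraries and 32.4, 31.6, 28.7 and 34.5 CPM in the post-hypoxic ones. The post-hypoxic SCC154 libraries all lay above the non-hypoxic ones, among which replicate 1, the library that stood apart, was within the range of FADU. The SCC154 means were 15.2 ± 6.24 CPM (SD, n = 5) and 31.8 ± 2.39 CPM (SD, n = 4). The ratio from the edgeR fit was 2.06 or log2 1.04. Leaving out non-hypoxic replicate 1 gave log2 0.85, and over all settings the value ran from 0.84 to 1.19.

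NMNAT2 was also 2.16-fold higher in SCC154 than in FADU in the non-hypoxic state (log2 1.11, SE 0.31), with the groups overlapping at the lowest SCC154 library. In the post-hypoxic state it was 5.72-fold higher (log2 2.52, SE 0.28). These too are given without a test, since both SCC154 groups took part in the choice of NMNAT2. In FADU the post-hypoxic level differed by log2 -0.36 (95% interval -1.09 to 0.37), within the spread between replicates (edgeR adjusted p = 1). Without non-hypoxic FADU replicate 2, the highest of its group, the FADU difference was 0.04.

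**Figure D1:**
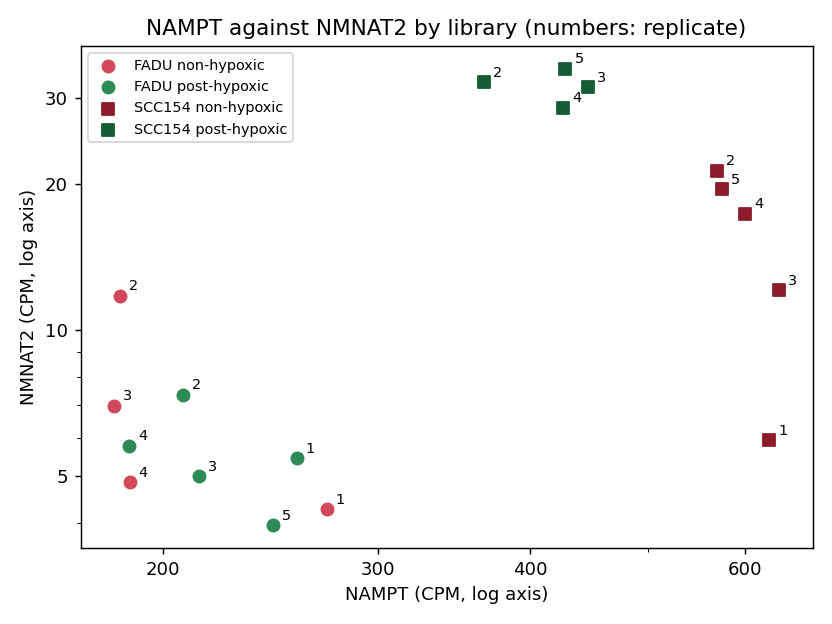
Level of NMNAT2 against that of NAMPT in each of 18 libraries, both in CPM on log axes, with circles for FADU, squares for SCC154, red for non-hypoxic, green for post-hypoxic, and replicate numbers beside the points. The 4 post-hypoxic SCC154 libraries sit at higher NMNAT2 and lower NAMPT than the 5 non-hypoxic ones, and the FADU states intermingle.

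Within each line, libraries with more NAMPT tended to have less NMNAT2, as the plot of the pair by library shows. Pearson's r was -0.61 in FADU (Spearman's rho -0.68, n = 9) and -0.82 in SCC154 (rho -0.90, n = 9). Leaving out the 2 libraries farthest from the median NAMPT level gave r of -0.60 and -0.84. In SCC154 the values fall into the sorted states by which the pair was selected, so the relation there restates that choice. After each line's mean was subtracted, r was -0.75 over 18 libraries, which share kit and sequencing depth range. These are descriptions without a test.

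By the same line-centred correlation of log2 CPM, over 18 libraries and 9660 genes with a mean of at least 10 CPM, the genes whose pattern was most like that of NAMPT were UBR2 (r 0.87), DNM1L (0.86) and CLOCK (0.86). Each had r of 0.83 to 0.84 within FADU and 0.87 to 0.89 within SCC154. Most like NMNAT2 were ZC3HAV1 (0.85), IFIT1 (0.83) and ARHGEF3 (0.83). For those genes r within SCC154 was 0.95, 0.89 and 0.94, and within FADU 0.42, 0.70 and 0.31. The SCC154 values of NAMPT and NMNAT2 fall into the states by which both were selected. A high r within SCC154 can therefore restate a difference between those states. The named genes are the top of 9660 and are given without a test.

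NMNAT3 (chr3:139560180-139678017, minus strand) was counted in FADU and nearly absent from SCC154. FADU held 4.28, 6.53, 4.49 and 5.39 CPM in non-hypoxic and 3.81, 6.90, 5.90, 3.71 and 5.72 CPM in post-hypoxic libraries. SCC154 held 1 count in non-hypoxic replicate 2 and none in the other 8 libraries. In non-hypoxic cells, 43 counts in FADU stood against 1 in SCC154, a depth-corrected ratio of 54.9 with a 95% counting interval of 9.35 to 2220. In post-hypoxic cells, 57 counts stood against 0, at least 15.3-fold higher in FADU by a floor of 3 counts over the group. COPB2-DT overlaps the end of NMNAT3 on the other strand and held 4 to 14 counts in every library, SCC154 included. The 2 genes were counted separately, and 8 SCC154 libraries had COPB2-DT counts with no NMNAT3 count. Strand use in counting is not given in the sources used here, and how tags in the overlap were assigned was not tested.

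NMNAT1 (chr1:9943428-9985501, plus strand) lay between 5.23 and 14.0 CPM in all 18 libraries. Its means were 8.41 ± 3.86 and 8.40 ± 1.59 CPM in non-hypoxic and post-hypoxic FADU (SD, n = 4 and 5), and 10.5 ± 1.06 and 11.3 ± 1.69 CPM in SCC154 (SD, n = 5 and 4). The difference between the lines did not pass the test in either state (log2 0.33 and 0.42, edgeR adjusted p = 0.235 and 0.113). The first passed it, at log2 0.66, once FADU non-hypoxic replicate 4, the highest FADU library, was left out (edgeR adjusted p = 0.0174). Its pseudogenes NMNAT1P1 to NMNAT1P5 were at 0 in every library.

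Together, the NMNAT genes gave different mixtures in each line. Pooled over a group, NMNAT2 made up 34.7% of the NMNAT tags in non-hypoxic FADU, 28.8% in post-hypoxic FADU, 59.6% in non-hypoxic SCC154 and 73.9% in post-hypoxic SCC154. NMNAT3 made up 25.3% and 27.4% in FADU, 0.364% in non-hypoxic SCC154, and 0 of 376 tags in post-hypoxic SCC154, which allows a share of up to 0.798%. NMNAT1 took the rest, from 26.1% in post-hypoxic SCC154 to 43.8% in post-hypoxic FADU. Over libraries the NMNAT2 share was 20.0 to 45.8% in FADU and 35.3 to 78.4% in SCC154. A tag count does not grow with transcript length, but these shares rest on only 29 to 109 tags in a library.

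NAPRT (chr8:143574785-143578649, minus strand), the entry enzyme for nicotinic acid, was higher in SCC154 in both states. Its levels were 39.9, 30.5, 30.4 and 31.3 CPM in non-hypoxic FADU and 31.6, 27.1, 26.3, 26.0 and 28.6 CPM in post-hypoxic FADU. In SCC154 they were 77.003, 86.5, 106, 78.1 and 77.5 CPM in non-hypoxic and 78.6, 119, 80.4 and 94.4 CPM in post-hypoxic libraries. Every SCC154 library lay above every FADU library, and the states overlapped within each line. The lines differed 2.56-fold in non-hypoxic cells (log2 1.36, SE 0.15, edgeR adjusted p = 2.20e-08) and 3.32-fold in post-hypoxic cells (log2 1.73, SE 0.14, edgeR adjusted p = 2.57e-10). Within FADU the post-hypoxic level was lower in 4 of 4 same-numbered pairs. In the fit of group means without pairs, the log2 difference was -0.25 (95% interval -0.57 to 0.08), which did not pass the test (edgeR adjusted p = 1). With a replicate block within each line it was -0.25 (SE 0.13) and did not pass either (edgeR adjusted p = 0.834). An antisense gene covers the end of NAPRT in GENCODE v29 and is not in the table by symbol.

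NMRK1 (chr9:75060573-75088217, minus strand), the kinase for nicotinamide riboside, ran from 5.39 to 14.4 CPM in non-hypoxic FADU and from 8.67 to 15.4 CPM in post-hypoxic FADU. It held 11.8, 8.70, 21.3, 13.4 and 10.8 CPM in non-hypoxic SCC154 and 16.4, 28.0, 14.8 and 20.4 CPM in post-hypoxic SCC154. These groups overlapped, and the SCC154 states differed by log2 0.58, or 0.37 without the pair of libraries that stood apart. Between the lines the post-hypoxic level was 1.79-fold higher in SCC154 (log2 0.84, SE 0.27, edgeR adjusted p = 0.00756). The non-hypoxic difference, log2 0.48, did not pass the test (edgeR adjusted p = 0.153), but did at 0.79 without FADU non-hypoxic replicate 2 (edgeR adjusted p = 0.0339).

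QPRT (chr16:29679008-29698699, plus strand), which turns quinolinic acid from the kynurenine branch into nicotinic acid mononucleotide, was present in FADU and at or near 0 in SCC154. Its levels were 33.3, 42.7, 36.4 and 59.3 CPM in non-hypoxic and 30.5, 45.6, 36.8, 49.9 and 36.5 CPM in post-hypoxic FADU. The FADU groups overlapped, and the post-hypoxic difference was log2 -0.10 (95% interval -0.50 to 0.30; edgeR adjusted p = 1). SCC154 held no count in 5 non-hypoxic libraries and 2 counts in 4 post-hypoxic libraries. In non-hypoxic cells QPRT was at least 149.5-fold higher in FADU (351 counts against 0, with a floor of 3 counts over the group). In post-hypoxic cells 440 counts stood against 2, a depth-corrected ratio of 177 with a 95% counting interval of 48.6 to 1464. QPRT and NMNAT3 passed the filter on low counts only through FADU, where they are high, so their differences between the lines are given without a test. In GENCODE v29 a second protein-coding model on the same strand overlaps part of QPRT but does not reach its end. That model is not in the table by symbol.

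Of 8 listed genes of the kynurenine branch, which leads to QPRT, 3 were tested, and IDO1 and KYNU were higher in SCC154. Over all genes, 34.5% and 34.8% were called higher in non-hypoxic and post-hypoxic SCC154, and the count in this list is a description. TDO2, HAAO and ACMSD had 0 counts in every library. KMO had 0 counts in FADU against 38 in non-hypoxic and 19 in post-hypoxic SCC154, and IDO2 had 0 against 5 and 3. IDO1, which opens the ring of tryptophan, had 0 counts in all FADU libraries against 54 in non-hypoxic and 35 in post-hypoxic SCC154, at least 14.1-fold and 14.5-fold higher. KYNU (kynureninase) was higher by log2 1.96 and 1.76, with at most 10 counts in a non-hypoxic and 11 in a post-hypoxic FADU library. AFMID did not pass the test in either state. IDO1 and KYNU passed the filter on low counts only through SCC154, so their differences between the lines are given without a test.

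NADK (chr1:1751232-1780457, minus strand), which phosphorylates NAD to NADP, had means of 7.08 ± 4.06 and 8.16 ± 2.63 CPM in FADU (SD, n = 4 and 5) and 5.38 ± 2.36 and 7.35 ± 3.02 CPM in SCC154 (SD, n = 5 and 4), in the order non-hypoxic, post-hypoxic. All groups overlapped, and neither line comparison passed the test (log2 -0.35 and -0.11, edgeR adjusted p = 0.448 and 0.793). SIRT1 (chr10:67884669-67918390, plus strand), a nuclear deacetylase that consumes NAD, ran from 21.8 to 29.9 CPM in FADU and from 31.8 to 42.2 CPM in SCC154, with no overlap between the lines. It was 1.40-fold higher in non-hypoxic SCC154 (log2 0.49, SE 0.14, edgeR adjusted p = 0.00382) and 1.31-fold higher in post-hypoxic SCC154 (log2 0.39, SE 0.14, edgeR adjusted p = 0.0157). The second did not pass the test without SCC154 post-hypoxic replicate 2 (edgeR adjusted p = 0.0848) or without the filter on low counts (edgeR adjusted p = 0.0696). NNMT (chr11:114257787-114313285, plus strand), which methylates nicotinamide, had 5 counts in all: 4 in 2 non-hypoxic and 1 in 1 post-hypoxic SCC154 library. Its 0 counts in FADU allow up to 0.363 CPM in non-hypoxic and 0.275 CPM in post-hypoxic cells, for counting error only.

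**Figure D2:**
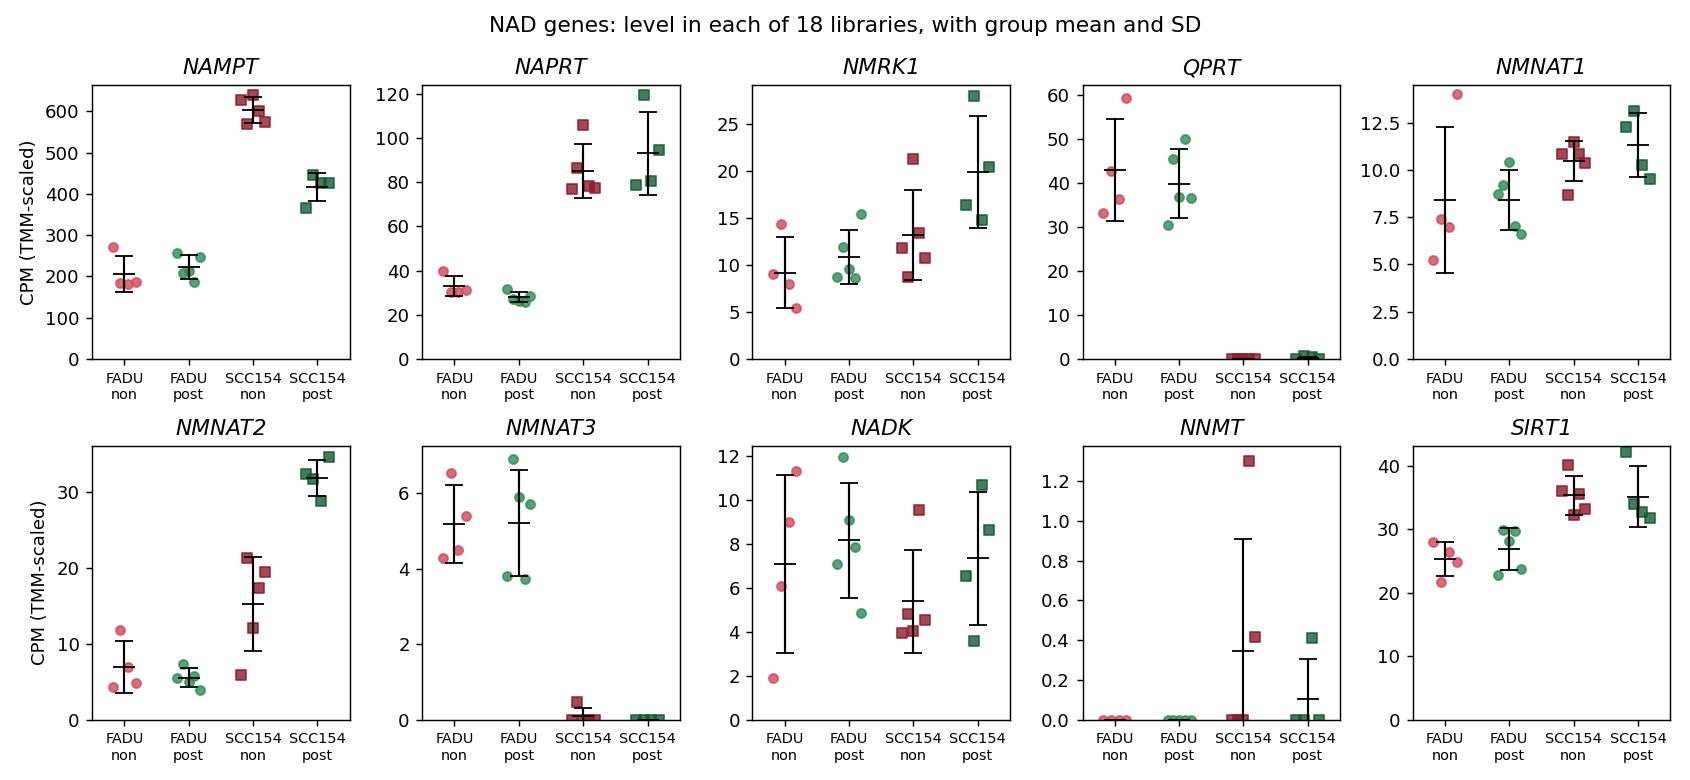
Level of each of the 10 genes in CPM (vertical axes, each from 0) in every library of the 4 groups, with horizontal bars for the group mean and error bars for the SD. NAMPT, NAPRT and SIRT1 are higher in every SCC154 library than in every FADU library, and QPRT and NMNAT3 are counted in FADU and at or near 0 in SCC154. Such separation was common: of 34 other tested genes of NAD metabolism, 18 in non-hypoxic and 22 in post-hypoxic cells did not overlap between the lines.

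Within FADU, 0 of the 9 tested genes were called higher and 0 lower, against 0% and 0% of all 12291 genes, and 0 had an unadjusted p under 0.05, where 298 of all genes did. DESeq2 called 3 of all genes and 0 of the 9, and edgeR with a replicate block for each line called 7 and 0. The FADU states overlapped for all 9, while 1.07% of all genes did not overlap. The median log2 difference of the 9 genes was 0.01, against 0.00 over all genes.

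Within SCC154, where the states chose NAMPT and NMNAT2, the post-hypoxic level was called higher for 0.334% of all genes and lower for 0.423%, and 5.55% did not overlap. NAMPT and NMNAT2 were the 2 of 9 genes whose groups did not overlap. The groups overlapped for NMRK1 (log2 0.58) and for NADK (0.46). NAPRT (0.13), NMNAT1 (0.11) and SIRT1 (-0.01) lay nearer to 0, and QPRT and NMNAT3 had too few SCC154 counts for a ratio.

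Between the lines in the non-hypoxic state, 4 of the 9 genes were called higher in SCC154, against 34.5% of all genes, and 2 were called lower, against 34.5%. In the post-hypoxic state 5 were called higher, against 34.8%, and 2 lower, against 34.9%. These counts hold NAMPT and NMNAT2, chosen on SCC154 libraries, among the genes called higher, and QPRT and NMNAT3, which passed the filter only through FADU, as the genes called lower. They are given as a description, and nothing is read from them against the share of all genes. The lack of overlap between the lines for NAMPT, NAPRT and SIRT1 is likewise a description. Its share over all genes is not given here, but 68.9% and 69.7% of all genes were called between the lines in the non-hypoxic and post-hypoxic state. Of 34 other tested genes of NAD metabolism, 18 and 22 did not overlap.

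**Figure D3:**
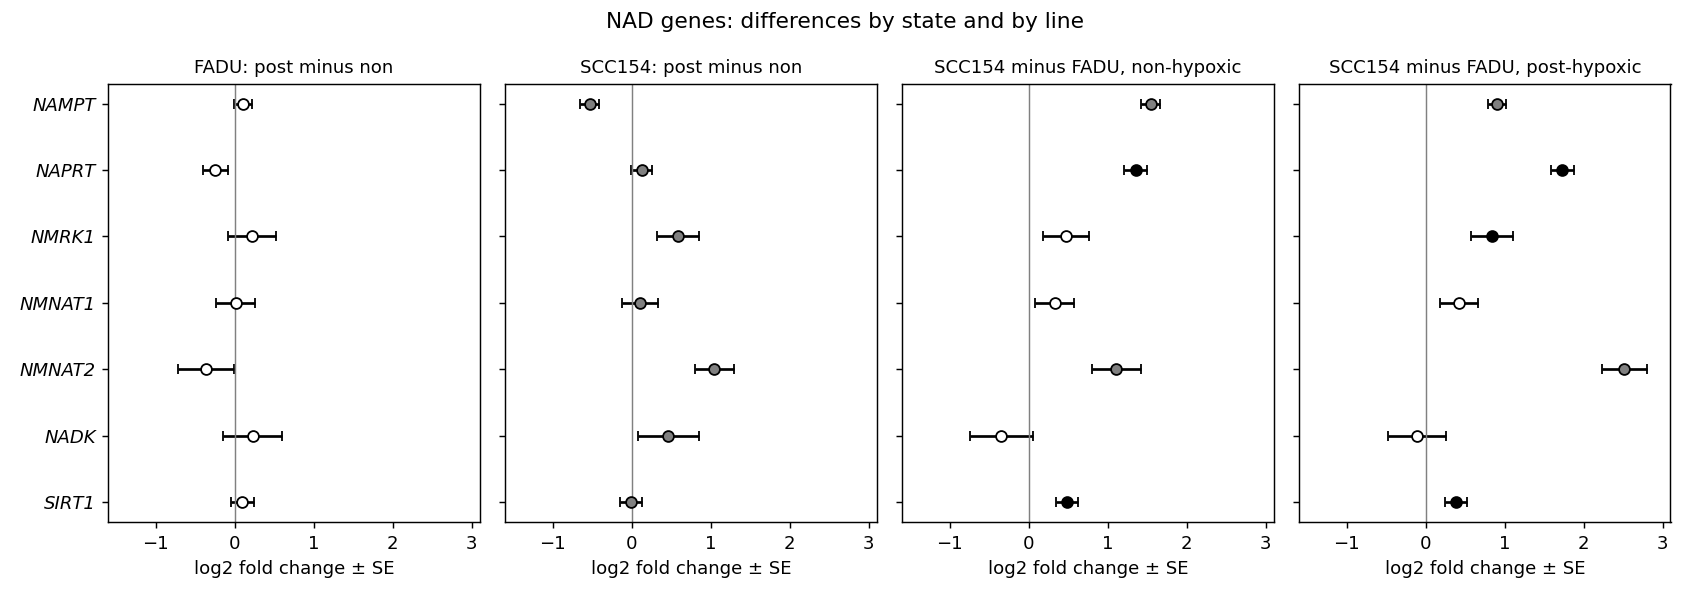
Log2 fold change with its SE for 7 of the 10 genes in 4 comparisons (panels: post-hypoxic minus non-hypoxic in FADU and in SCC154, then SCC154 minus FADU in each state). Filled black points passed an edgeR adjusted p of 0.05, open points did not, and grey points are descriptions without a test, because the SCC154 groups took part in choosing NAMPT and NMNAT2. NNMT, QPRT and NMNAT3 are left out because a group was at or near 0 counts, and in FADU all 7 points are open.

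Around these 10 genes, 53 others of NAD metabolism were listed, and 34 were tested. No gene of the 34 was called between the states of FADU, where 1 had an unadjusted p under 0.05 against 298 of all 12291, or between those of SCC154, where 7 did against 1930 of all. In SCC154 the lowest adjusted p belonged to ENPP1, a surface enzyme that splits nucleotides (log2 -1.16, edgeR adjusted p = 0.0942). With a replicate block for each line PARP3 and PARP16 were called (log2 0.69 and 0.79, edgeR adjusted p = 0.0187 and 0.0206). That fit called 1052 of all 12291 genes in SCC154, whose same-numbered libraries did not meet the minimum for pairing, so nothing is read from these calls. Between the lines 13 were called higher and 10 lower in non-hypoxic SCC154, against 34.5% and 34.5% of all genes, and post-hypoxic SCC154 had 17 called higher and 8 lower, against 34.8% and 34.9%. The same shares of all genes are the background for each list below, and the counts of these lists are descriptions. The median log2 difference of the 34 was 0.15 and 0.31, against -0.01 and 0.01 over all genes.

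Among enzymes of salvage, NADP supply and repair, 4 of 7 were called higher and 3 lower in non-hypoxic SCC154 (34.5% and 34.5% of all genes), and post-hypoxic SCC154 had 4 called higher and 1 lower (34.8% and 34.9%). NNT, the mitochondrial transhydrogenase that makes NADPH from NADH, was higher by log2 1.61 in both states (edgeR adjusted p = 4.43e-09 and 2.05e-09). PNP, which splits nucleosides including nicotinamide riboside, was lower by log2 -0.89 and -0.70 (edgeR adjusted p = 4.14e-05 and 0.000516). Of 5 tested genes for transport and extracellular handling, 4 were called lower in both states, against 34.5% and 34.9% of all genes, and the other, SLC25A51, was called higher in post-hypoxic SCC154 (log2 0.81). SLC12A8, reported as a carrier of nicotinamide mononucleotide, was lower by log2 -1.37 and -1.13 (edgeR adjusted p = 3.28e-05 and 0.000395), and the others lower were SLC29A1, NT5E and ENPP1. These and SLC25A51 are named after their values were seen. SLC29A1 and NT5E passed the filter on low counts only through FADU, and SLC25A51 only through SCC154. Their differences between the lines are given without a test, and the counts of called genes hold them as a description.

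Among the NAD-consuming PARP family and related enzymes, 5 of 14 were called higher and 3 lower in non-hypoxic SCC154 (34.5% and 34.5% of all genes), and post-hypoxic SCC154 had 8 called higher and 3 lower (34.8% and 34.9%). TNKS (tankyrase) was higher by log2 2.69 and 2.73 (edgeR adjusted p = 1.04e-13 and 3.31e-14), with means of 155 and 23.8 CPM in non-hypoxic SCC154 and FADU. TIPARP was higher by log2 1.46 in non-hypoxic cells and PARP16 by 1.26 in post-hypoxic cells (edgeR adjusted p = 6.12e-08 and 0.000164). PARP1, the main poly(ADP-ribose) polymerase of DNA repair, was lower by log2 -0.72 and -0.92 (edgeR adjusted p = 8.17e-05 and 4.47e-06). Of 5 other sirtuins tested, 2 were called higher in each state, against 34.5% and 34.8% of all genes, and none was called lower.

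**Figure D4:**
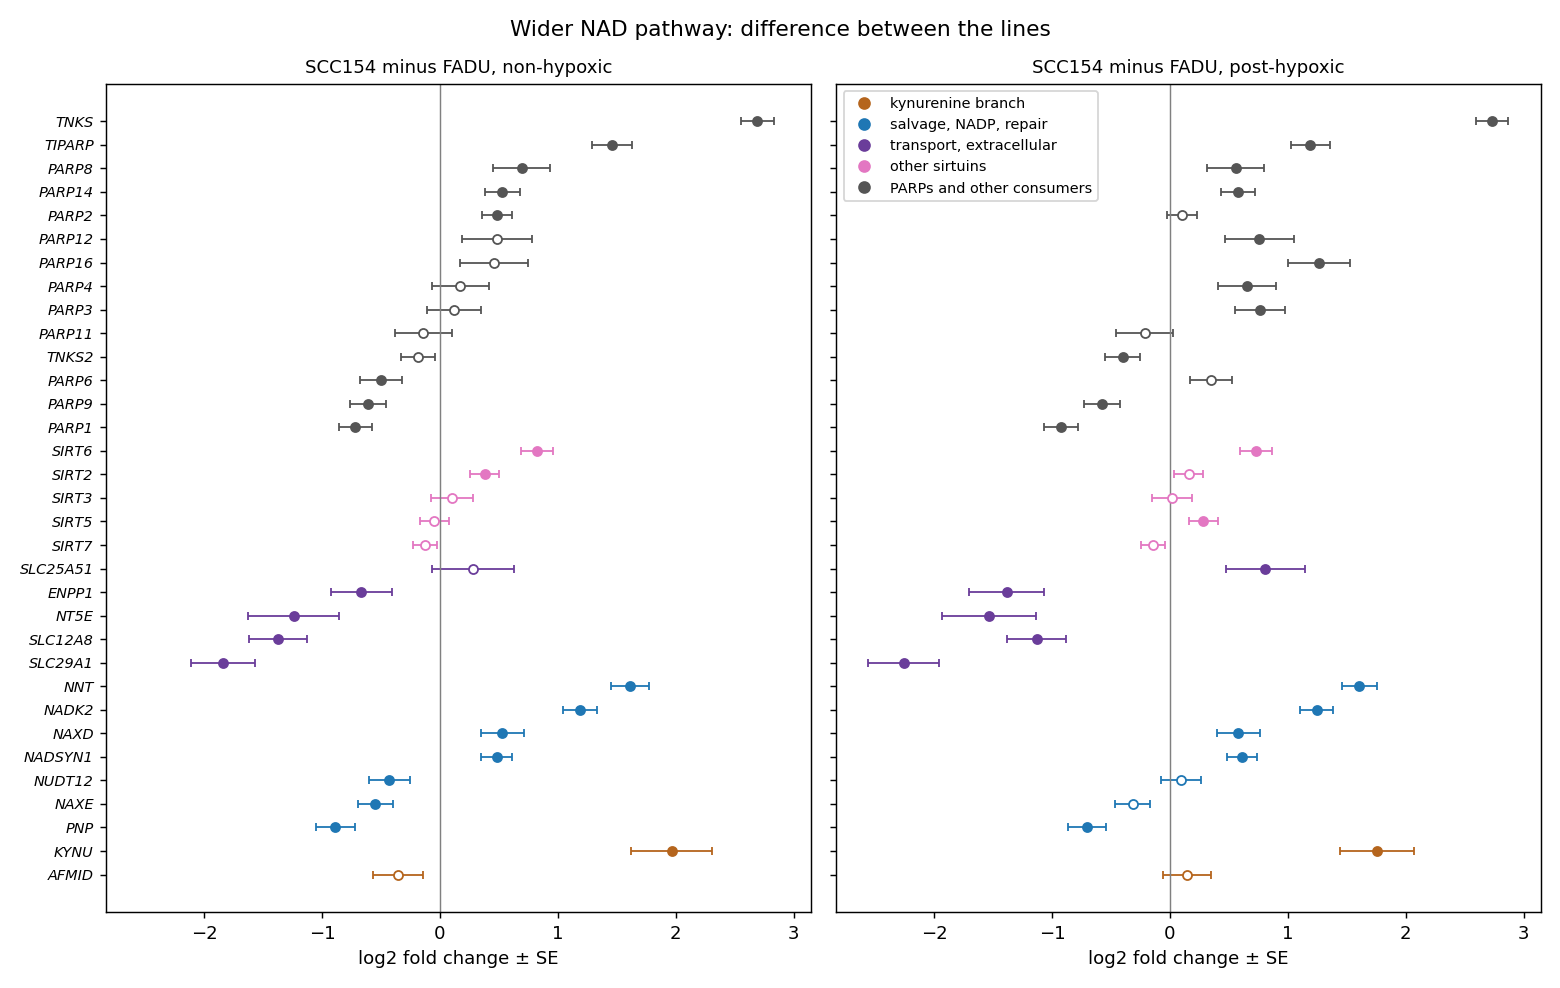
Log2 fold change with its SE of 33 further genes of NAD metabolism between the lines, SCC154 minus FADU, in non-hypoxic (left) and post-hypoxic (right) cells, coloured by list, with filled points for an edgeR adjusted p under 0.05. IDO1 is left out because FADU had no count. KYNU, SLC29A1, NT5E and SLC25A51 are drawn by the same rule, but passed the low-count filter only through the line where they are high. Their points are descriptions without a test, whether filled or open. TNKS has the highest value in both panels, and the extracellular and transport genes other than SLC25A51 lie below 0.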

How the data were processed

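The deposited table held whole-number counts of QuantSeq 3′ mRNA tags per gene symbol in 18 libraries, made by the authors. Among other tools, featureCounts 1.5.1, HISAT2 2.2.1, UMI-tools 1.1.5 and the build hg38 appear in the submitters' processing notes. The sources used here do not give the annotation, the strand setting or the order of steps. Libraries were grouped by title. Replicate pairs differed by more than sampling noise (chi-square per degree of freedom 1.84 to 11.7 over 32 pairs), so each library counted once.

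The counts were tested with edgeR 4.0.16 (R 4.3.3): trimmed-mean scaling, filterByExpr with the 4 groups, a quasi-likelihood fit of 4 group means over all libraries and Benjamini-Hochberg adjustment over 12291 genes, with calls at an adjusted p under 0.05. Replicates varied by a common biological coefficient of 0.148, on 14 residual degrees of freedom. Levels are CPM, and correlations used log2 CPM with a prior count of 2. Ratios to groups of 1 or 2 counts carry exact 95% intervals, and groups at 0 a floor of 3 counts. Both cover counting error only. The script was tested on simulated data.

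The genes and lists were chosen with earlier results of these data known. Genes named beyond the 10 were up to 3 called pathway genes per direction and line comparison with the largest change and a mean of at least 10 CPM, and the 3 genes most like NAMPT and NMNAT2. Alternatives were DESeq2 1.42.0, upper-quartile scaling, no filter on low counts, a fit of only the 2 groups compared, the replicate number as a block, leaving out each library, and, chosen after the data were seen, leaving out the pair of SCC154 libraries that stood apart. Same-numbered FADU libraries deviated together (r 0.178 to 0.447 over 4 pairs, all over 0.1) and met the minimum for pairing. Those of SCC154 (0.0292 to 0.398) did not. All FADU p-values and intervals in the Results come from the fit of 4 group means without a replicate block, unless a block is named. With the block within each line, the FADU log2 difference was 0.08 for NAMPT (SE 0.08, edgeR adjusted p = 0.910). It was -0.24 for NMNAT2 (SE 0.28, edgeR adjusted p = 0.936).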

Additional observations from a re-analysis of the deposited data

Results flagged for a closer look

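Of 36 sets of values (a gene in a group of libraries) checked for a single library far from the others, 5 held one by Dixon's test. For normally distributed values, chance alone gives about 1 in 20 such sets. FADU non-hypoxic replicate 1 was high for NAMPT, at 272 CPM with the nearest library at 188 CPM. The same library was high for NAPRT, at 39.9 CPM with the nearest at 31.3 CPM. SCC154 non-hypoxic replicate 4 was high for NADK, at 9.54 CPM with the nearest at 4.83 CPM. The high values for NMNAT3 in SCC154 non-hypoxic replicate 2 (0.483 CPM) and for NNMT in SCC154 post-hypoxic replicate 4 (0.410 CPM) each rest on 1 count, with the other libraries of the group at 0. A set of that kind is always flagged, so the rate of 1 in 20 does not apply to it.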

How the results depend on the processing

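Within FADU, 0 of the 9 tested NAD genes and 0 of the 34 further pathway genes were called under any of the 25 alternatives. Over all genes the FADU count of 0 became 3 with DESeq2, 10 without the filter on low counts and 7 with the replicate block within each line, and was 0 to 1 when 1 library was left out. Over all genes the SCC154 count of 93 became 203 with DESeq2, 291 without the filter, 22 with only the groups compared, 243 with a replicate block shared across the lines, 1052 with the replicate block within each line, and 20 to 190 when 1 library was left out. Of the pathway genes, 2 were called in SCC154 with the replicate block within each line, against 0. The cause was not tested. Between the lines, the called number of the 9 genes was 5 to 7 in non-hypoxic and 6 to 7 in post-hypoxic cells. The lower ends include the fit of only the groups compared, in which fewer genes passed the filter and NMNAT3 was not tested between the lines. The replicate block shared across the lines changed no call among the 9 genes and gave 23 and 27 called pathway genes, against 23 and 25. The FADU difference in NMNAT3 turned to -0.018 with the shared replicate block and -0.026 with the block within each line. Leaving out 1 library gave -0.11 to 0.15 for NMNAT3, -0.086 to 0.53 for NADK, -0.16 to 0.35 for NMNAT1, -0.54 to 0.037 for NMNAT2 and -0.20 to 0.092 for QPRT in FADU, none past the test. The post-hypoxic line difference in NADK turned to 0.085 without the pair of SCC154 libraries that stood apart and ran from -0.33 to 0.078 with 1 library left out. For genes under about 10 CPM, depth limits what difference could be detected.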
